A study of Mus musculus with 12 samples.

Results

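The livers of male Balb/c mice given carbon tetrachloride (CCl4) were compared with the livers of mice given olive oil, where both groups carried the same control lentivirus. The comparison is the group NC+CCl4 against the group NC. It uses 6 of the 12 arrays of the series, 3 per group, and all 18194 genes that a probe set names. A gene with several probe sets is represented by the one whose 12-array mean was highest. The mice were obtained at 8 weeks of age and treated after acclimatization. They received 5% CCl4 in olive oil (NC+CCl4) or oil (NC) at 0.3 ml/kg by intraperitoneal injection, 3 times per week. A lentivirus that carried a negative control construct (Lenti-NC) was injected through the tail vein at week 2, and the injections went on for 4 weeks, so that CCl4 or oil was given for 6 weeks in all. Each group had 10 treated mice, of which 3 livers were profiled. No group without virus was analysed here, so CCl4 was compared with oil only in virus-treated animals. The other 6 arrays carried a virus against the long noncoding RNA lnc-LFAR1, with oil (shLFAR1) or CCl4 (shLFAR1+CCl4). They were not compared here and enter through the pooled spread, the choice of probe set and the grouping of genes by mean level.

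CCl4 is turned into reactive radicals by cytochromes P450, mainly Cyp2e1, in the hepatocytes around the central vein. Repeated dosing leads to cell death, regeneration of hepatocytes, influx of macrophages and activation of hepatic stellate cells (HSCs), which turn into myofibroblasts and deposit collagen. Hepatocytes meanwhile hold many genes for drug metabolism, bile acids and sex-dependent secreted proteins whose levels depend on growth hormone, on zonation and on inflammatory cytokines.

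Values are log2 signals of Affymetrix Mouse Genome 430 2.0 arrays, and array values are always given in the order replicate 1, 2 and 3. A change is the mean of NC+CCl4 minus the mean of NC on the log2 scale, with its SE from limma. A gene is called higher or lower, or said to have risen or fallen, at a Benjamini-Hochberg adjusted p under 0.05 over all 18194 genes, and every adjusted p below comes from that limma fit unless another is named, with 3 arrays per group. The hepatocyte genes Alb, Ttr and Apoa1 measured 13.96 to 14.47 on the 6 arrays, and none of 10 markers of pancreas, muscle and fat was called. On the first principal component of the 6 arrays, which held 63.8% of the variance, the NC arrays lay between -35.9 and -33.4 and the NC+CCl4 arrays at 36.2, 26.2 and 41.9. The second component held 14.7% and set NC+CCl4 replicate 1 (28.7) apart from NC+CCl4 replicate 2 (-25.1). In NC+CCl4 replicate 1 the 3′ minus 5′ difference of Gapdh, a sign of RNA quality, reached 0.716 on the log2 scale, whereas the other 5 arrays lay between -0.205 and -0.035. Its part in the results was not tested, and counts of called genes without it, as without every other array, are given where they moved by over 1.5 times, apart from a 0 that became 1. The gene lists were chosen with earlier results of these data known, so shares of called members describe the lists and do not test them. Members of the gene lists beyond those a fixed rule selected were named after their values were seen. In whole liver RNA, fewer cells of a type and less RNA per cell cannot be told apart.

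Of the 18194 genes, 2375 (13.1%) were called, 1393 of them higher (7.66%) and 982 lower (5.4%). Counts of called list members below are to be read beside these shares. The 6 arrays did not overlap between the groups in 5384 genes (29.6%), among them 2350 of the called genes, and 4927 genes had an unadjusted p under 0.05. The median change was 0.96 among the genes called higher and -0.56 among those called lower, and 666 genes rose at least 2-fold while 164 fell at least 2-fold. At 16-fold or more, 13 genes rose and 5 fell. The median over all genes was -0.05.

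The shares of genes called differed with the level. Among the 4549 genes with the lowest mean level over all 12 arrays (2.12 to 3.90 log2 units) 2.09% were called higher and 1.65% lower. Among the 4549 genes with the highest level (7.63 to 14.3) 7.94% were called higher and 11.8% lower. The share called higher was largest, at 10.8%, among genes at 5.59 to 7.63. The SD among replicates had a median of 0.131 log2 units in NC and of 0.172 in NC+CCl4, and 11550 genes had the larger SD in NC+CCl4. On the 3 NC+CCl4 arrays the median deviations from the NC mean were 1.01, 0.87 and 0.97 for the genes called higher and -0.53, -0.53 and -0.66 for those called lower. The calls of 1044 genes (703 higher and 341 lower) held when any one of the 6 arrays was left out. Of the 1329 called genes with 2 or more probe sets, 539 had another probe set called in the same direction and 6 had one called in the opposite direction.

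**Figure D1:**
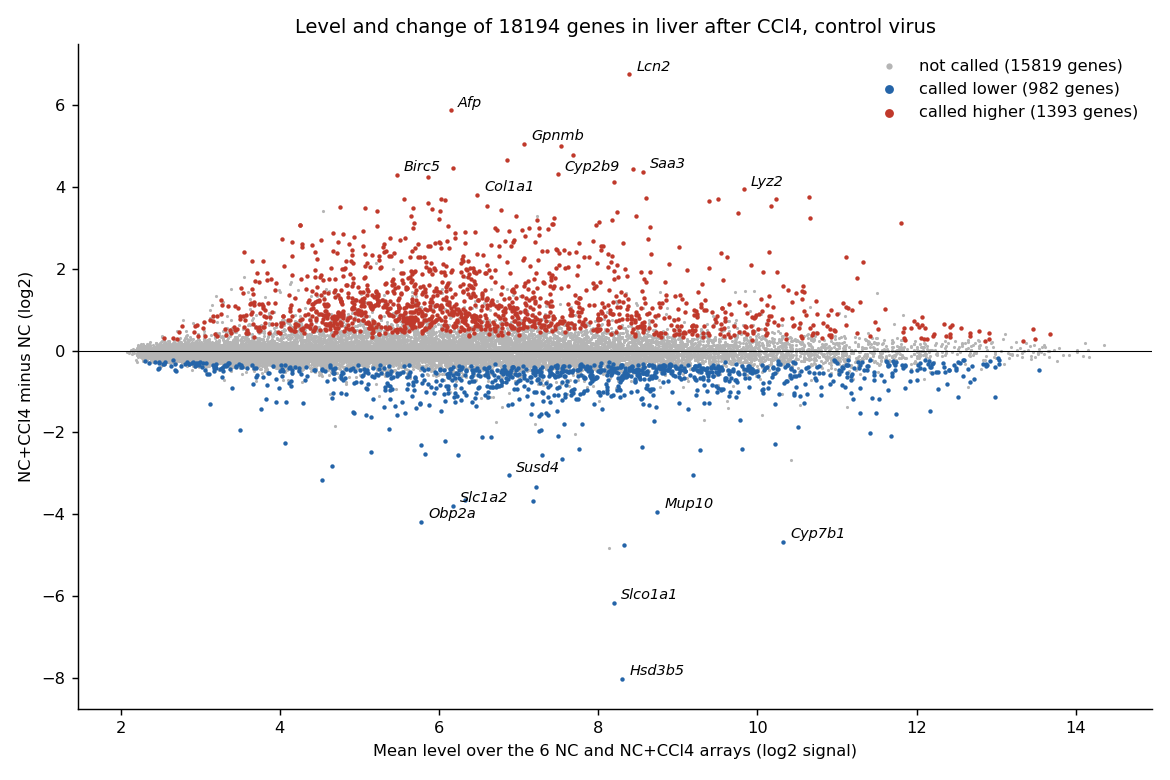
Change after CCl4 (y axis, NC+CCl4 minus NC in log2 units) against the mean level over the 6 arrays (x axis, log2 signal), 1 point per gene, with called genes in colour. The genes called higher reach 6.76 (Lcn2) and those called lower -8.02 (Hsd3b5), and at high levels the calls are mostly lower.

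The 15 highest and 15 lowest changes follow. They were taken from called genes whose groups did not overlap and whose higher group mean exceeded that group's median level. Lcn2, an iron-siderophore binding protein that hepatocytes secrete in inflammation, measured 5.21, 4.74 and 5.07 in NC and 10.79, 12.19 and 12.32 in NC+CCl4. The NC+CCl4 arrays were far above all NC arrays, with replicate 1 the lowest of them, and the change was 6.76 ± 0.72 (108-fold, adjusted p = 0.000293). Afp, the albumin-like protein of fetal liver, measured 3.32, 3.54 and 2.78 in NC and 9.29, 8.85 and 9.11 in NC+CCl4. Its NC+CCl4 arrays lay far above all NC arrays, and the SE of its change (5.88 ± 1.37, adjusted p = 0.0146) comes, as for every gene, from the spread pooled over all 4 groups. Ly6d, a surface protein of the Ly6 family, measured 4.29, 4.68 and 4.61 in NC and 9.45, 8.79 and 9.29 in NC+CCl4 (4.65 ± 0.93). Cyp2b9, a cytochrome P450 that is higher in female liver, measured 5.61, 4.84 and 5.56 in NC and 10.41, 8.84 and 9.68 in NC+CCl4 and rose by 4.31. Clec7a, the beta-glucan receptor of myeloid cells, measured 6.28, 6.08 and 6.05 in NC and 9.96, 10.89 and 9.92 in NC+CCl4, with replicate 2 the highest (4.12 ± 0.52). The other genes among the highest changes were Gpnmb (5.06), D17H6S56E-5 (5.00), Lgals3 (4.78), Mmp12 (4.47), Saa2 (4.45), Saa3 (4.37), Birc5 (4.30), Mki67 (4.25), Lyz2 (3.94) and Col1a1 (3.81).

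Hsd3b5, a steroid dehydrogenase of male liver, measured 12.23, 12.53 and 12.18 in NC and 4.62, 4.44 and 3.81 in NC+CCl4. All 3 NC+CCl4 arrays were more than 7 log2 units below every NC array, and the change was -8.02 ± 1.03 (adjusted p = 0.000821). The organic anion transporter Slco1a1 measured 11.07, 11.34 and 11.44 in NC and 5.09, 5.41 and 4.85 in NC+CCl4 (-6.17 ± 1.01). Nlrp12, of the NOD-like receptor family, measured 8.79, 8.92 and 8.95 in NC and 5.63, 5.45 and 5.57 in NC+CCl4, and its arrays were tight in both groups (-3.34 ± 0.24, adjusted p = 6.06e-05). Cnmd, which encodes chondromodulin, measured 5.94, 6.15 and 6.14 in NC and 3.37, 3.15 and 3.22 in NC+CCl4 (-2.83 ± 0.26). For Serpina4-ps1, a serpin pseudogene, the values were 11.78, 11.56 and 8.77 in NC and 7.0, 6.16 and 4.66 in NC+CCl4, so NC replicate 3 lay well below the other NC arrays. The same array was the lowest of NC for Obp2a, a lipocalin, at 9.12, 8.60 and 5.89 in NC and 3.93, 3.52 and 3.58 in NC+CCl4. It was also the lowest for the mitochondrial carrier Slc25a30, at 11.45, 11.77 and 8.92 in NC and 7.27, 8.39 and 7.39 in NC+CCl4. The changes of these 3 genes were -4.77, -4.19 and -3.03. That their groups did not overlap was a condition of the selection. The remaining genes among the lowest changes were Cyp7b1 (-4.68), Mup10 (-3.94), Slc1a2 (-3.79), Sult5a1 (-3.67), Ugt2b38 (-3.65), Hectd2os (-3.16), Susd4 (-3.06) and Gm2788 (-2.64). When 1 array was left out, the calls were lost for Serpina4-ps1, Mup10, Slc25a30 and Gm2788 without NC replicate 1, Cyp2b9, Serpina4-ps1, Mup10, Slc25a30 and Gm2788 without NC replicate 2, Afp and Mup10 without NC replicate 3, Birc5 and Slc25a30 without NC+CCl4 replicate 1 and Birc5, Serpina4-ps1, Mup10, Slc25a30 and Gm2788 without NC+CCl4 replicate 3, and for no other of the 30 genes.

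**Figure D2:**
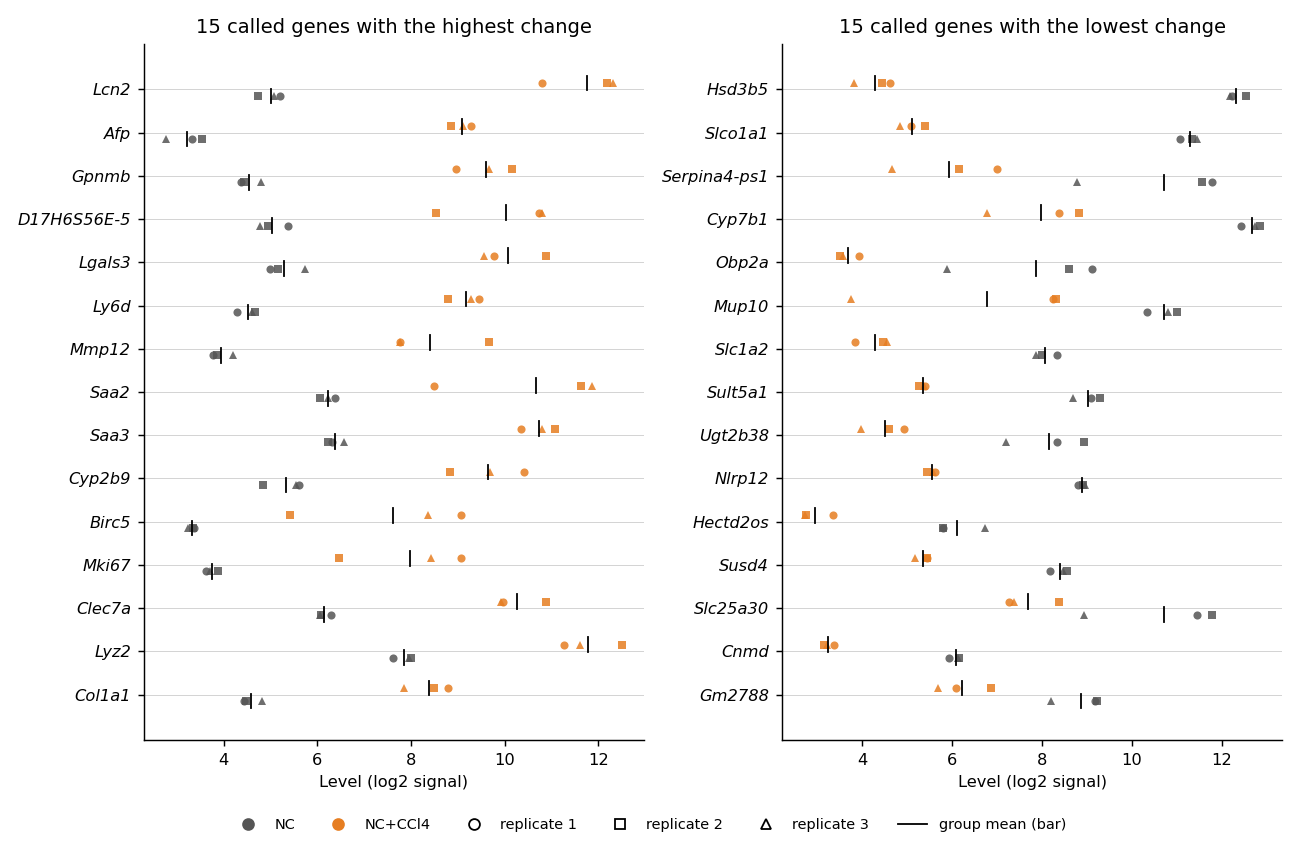
Level (x axis, log2 signal) of the 15 called genes with the highest and the 15 with the lowest change on each NC (grey) and NC+CCl4 (orange) array, with shapes for replicates and bars for group means. NC replicate 3 lies apart in Serpina4-ps1, Obp2a and Slc25a30, and NC+CCl4 replicate 2 lies low in Birc5 and Mki67.

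Of the 12 genes with the smallest p, Saa3 and Nlrp12 were also among the largest changes, and the other 10 changed less but with little spread. Saa3, a serum amyloid of macrophages and other cells, measured 6.32, 6.22 and 6.58 in NC and 10.35, 11.07 and 10.81 in NC+CCl4 (4.37 ± 0.25, adjusted p = 5.97e-06). The MHC class II beta chain H2-Ab1 measured 6.52, 6.48 and 6.31 in NC and 9.10, 9.98 and 9.44 in NC+CCl4, with replicate 2 the highest (3.07 ± 0.23). Dpt, the matrix protein dermatopontin, measured 5.71, 5.70 and 5.40 in NC and 7.97, 8.58 and 8.33 in NC+CCl4 (2.69 ± 0.22). The next genes had smaller changes that were alike on all 3 NC+CCl4 arrays. Gpcpd1, a glycerophosphocholine phosphodiesterase, measured 9.55, 9.60 and 9.57 in NC and 7.78, 7.99 and 7.75 in NC+CCl4, so that it fell by 1.74. The carboxylesterase Ces2a measured 12.14, 12.24 and 11.98 in NC and 10.93, 10.85 and 11.02 in NC+CCl4 and fell by 1.19. Prg4, the lubricating proteoglycan lubricin, measured 8.48, 8.49 and 8.65 in NC and 9.98, 9.93 and 10.00 in NC+CCl4 and rose by 1.43. Tmem176b, a membrane protein of antigen-presenting cells, measured 10.57, 10.52 and 10.64 in NC and 11.69, 11.69 and 11.55 in NC+CCl4 and rose by 1.07. Dkk3, of the Dickkopf family, measured 4.18, 4.22 and 4.21 in NC and 5.51, 5.63 and 5.37 in NC+CCl4 and rose by 1.30. The others were Slc3a1 (1.16), Cd74 (2.29) and Cdkn2c (2.45), an amino acid transporter subunit, the MHC class II invariant chain and the p18 inhibitor of Cdk4 and Cdk6. Of these 12 genes 11 were called under all 18 alternatives, and Dkk3 under all 17 in which it was tested. Among all 2375 called genes, 150 were called under all 18. The 12 genes were picked by their p from the same arrays, so this is no independent support.

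The fibrous matrix of the portal tracts and scars is built from collagens I, III and V, made as long triple helices. Of 10 fibrillar collagen genes measured, 5 were called higher and none lower, with a median change of 0.69. Col1a1 measured 4.43, 4.48 and 4.81 in NC and 8.79, 8.50 and 7.86 in NC+CCl4, with NC+CCl4 replicate 3 the lowest of its group and still above every NC array (3.81 ± 0.57, adjusted p = 0.00188). Col3a1 measured 8.08, 8.51 and 8.56 in NC and 12.02, 12.29 and 11.96 in NC+CCl4, and the change was 3.71 ± 0.41. Col1a2 (3.70), Col5a2 (2.80) and Col5a1 (1.24) rose as well. The other fibrillar collagens were not called, Col11a1 (0.13), Col5a3 (0.03), Col2a1 (-0.04), Col24a1 (-0.05) and Col27a1 (-0.16). The beaded collagen VI, which links fibres to cells, rose in all 3 measured chains, Col6a3 (3.14), Col6a2 (2.69) and Col6a1 (2.56), and Col14a1, which sits on fibril surfaces, rose by 1.29. The 9 other non-fibrillar collagens measured were not called, among them Col15a1 (0.36) and Col18a1 (-0.13).

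The basement membrane is a sheet of collagen IV, laminins and nidogens that the sinusoids of healthy liver lack. Of 19 genes measured, 8 were called higher and 1 lower. Col4a5 measured 3.63, 2.81 and 4.13 in NC and 6.51, 7.02 and 7.26 in NC+CCl4, with no overlap (3.41 ± 0.45). The common collagen IV chains and the nidogens rose, Col4a2 (2.09), Col4a1 (1.94), Nid1 (2.30) and Nid2 (0.91), as did the laminin chains Lama2 (1.18), Lamb1 (0.90) and Lamc1 (0.75). Lama3, a laminin chain of epithelia, measured 6.10, 6.44 and 5.96 in NC and 5.17, 5.14 and 4.44 in NC+CCl4 and fell by 1.25. Perlecan, Hspg2, had a change of -0.02 and was not called. Lama3 lost the call without NC replicate 1, NC replicate 2 or NC+CCl4 replicate 3.

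Among proteoglycans, 8 of 19 were called higher and 2 lower. Of the small leucine-rich proteoglycans, many of which bind collagen fibrils, Lum (2.53), Fmod (1.73), Bgn (1.34), Dcn (0.90) and Prelp (0.84) rose and Podn (0.10), Aspn (0.09), Ogn (-0.06) and Omd (-0.08) were not called. Lum measured 7.60, 7.74 and 7.92 in NC and 9.95, 10.43 and 10.47 in NC+CCl4. The syndecans, which are heparan sulfate carriers on the cell surface, split, since Sdc1 rose by 0.87 while Sdc4 fell by 1.09 and Sdc2 by 0.47. Sdc4 measured 11.48, 11.22 and 11.33 in NC and 10.46, 10.54 and 9.78 in NC+CCl4, so the groups did not overlap. The number of proteoglycans called lower, 2, was 1 without NC replicate 2, NC replicate 3 or NC+CCl4 replicate 2. The count of proteoglycans called higher was 5 without NC replicate 1, NC replicate 2 or NC+CCl4 replicate 3. Elastic fibre genes were called higher in 7 of 14, led by Ltbp2 (2.43), Emilin1 (1.65), Ltbp3 (1.10) and Fbln5 (0.98), where Ltbp proteins hold latent TGFβ in the matrix. The matricellular proteins Sparcl1 (2.82), Sparc (2.29), Postn (2.22), Tnxb (1.24) and Tnc (1.05) rose, and Ecm1 (-1.02) and Ccn1 (-0.90) fell. In the whole list of 16 such proteins the 2 lower calls became 1 without NC replicate 2, NC replicate 3, NC+CCl4 replicate 1, NC+CCl4 replicate 2 or NC+CCl4 replicate 3. Ecm1 measured 9.45, 9.43 and 9.42 in NC and 8.88, 8.39 and 7.99 in NC+CCl4. Fibronectin, Fn1, which hepatocytes also secrete into plasma, measured 12.33, 12.24 and 12.17 in NC and 12.47, 12.36 and 12.24 in NC+CCl4 and was not called.

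Collagen is stabilized by lysyl oxidases and folded with the chaperone Serpinh1 (Hsp47). Of 19 such genes, 7 were called higher, Loxl1 (2.28), Serpinh1 (1.77), Pcolce (1.52), Tgm2 (1.44), Crtap (1.19), Plod2 (0.85) and Lox (0.52). The prolyl 4-hydroxylase subunits were not, P4hb (0.24), P4ha1 (-0.30), P4ha2 (-0.15) and P4ha3 (-0.08). Among 26 matrix proteases and inhibitors, 12 were called higher and none lower. Mmp2, the gelatinase of HSCs, measured 5.82, 6.02 and 5.63 in NC and 9.22, 9.05 and 8.93 in NC+CCl4 (3.24 ± 0.34). Mmp12, the macrophage elastase, measured 3.77, 3.86 and 4.19 in NC and 7.78, 9.67 and 7.76 in NC+CCl4, and its NC+CCl4 replicate 2 stood above the other 2. The inhibitors Timp2 (1.81), Timp1 (1.64) and Timp3 (1.27) rose together with the membrane protease Mmp14 (1.29) and the aggrecanase Adamts5 (2.16). Mmp13, the interstitial collagenase of the mouse, measured 2.65, 2.59 and 2.65 in NC and 3.86, 5.49 and 3.07 in NC+CCl4 and was not called (1.51 ± 0.66, adjusted p = 0.16).

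The study followed 12 pro-fibrogenic genes by PCR in cultured HSCs, after lnc-LFAR1 knockdown and with or without TGFβ. Of these it names Acta2, Col1a1, Col1a2, Ccn2, Mmp2, Mmp9 and Timp1 for CCl4-treated livers. The direction of the 12 genes is therefore not independent of its choice. The paper also reports CCl4-induced rises in TGFβ, TGFβR1, Smad2 and Smad3 mRNA in liver. Of the 12 genes, 8 were called higher here and none lower. Besides the collagens, Col4a5, Mmp2 and Timp1, they were Acta2, the smooth muscle actin of myofibroblasts, and the TGFβ receptor Tgfbr1. Acta2 measured 6.19, 6.23 and 6.17 in NC and 7.11, 7.83 and 7.99 in NC+CCl4, with no overlap (1.45 ± 0.26, adjusted p = 0.00437). Tgfbr1 measured 8.30, 8.23 and 8.13 in NC and 8.52, 9.01 and 8.94 in NC+CCl4 (0.60 ± 0.15). The ligand Tgfb1 measured 4.76, 4.90 and 4.73 in NC and 5.31, 5.26 and 4.81 in NC+CCl4 and was not called (0.33 ± 0.17, adjusted p = 0.23). Ccn2, the connective tissue growth factor, measured 6.85, 6.71 and 7.20 in NC and 5.94, 6.32 and 7.97 in NC+CCl4 and was not called (-0.18 ± 0.51). The changes of the metalloproteases Mmp9 and Mmp10 were -0.15 and -0.22, neither of them called. Tgfbr1 lost the call without NC replicate 2, NC replicate 3, NC+CCl4 replicate 2 or NC+CCl4 replicate 3.

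HSCs store retinol in the healthy liver and become contractile myofibroblasts in the injured one. Of 19 markers measured, 10 were called higher and none lower, with a median change of 0.88 against -0.05 for all genes. The PDGF receptor Pdgfrb measured 6.10, 6.60 and 6.26 in NC and 8.99, 8.71 and 8.42 in NC+CCl4, and every NC+CCl4 array was above every NC array (2.39 ± 0.34). Lrat, the enzyme of retinol storage in quiescent HSCs, measured 5.51, 6.08 and 5.93 in NC and 7.23, 7.36 and 7.35 in NC+CCl4 and rose as well (1.47 ± 0.23). Of the intermediate filament genes, Vim rose by 2.00 while Des (0.28) and Gfap (-0.18) were not called. Other HSC genes that rose were Pdgfra (1.69), Cygb (1.02), Hand2 (0.80), Tpm1 (1.06), Tagln (0.93) and Myl9 (0.88). Reln, which HSCs secrete, measured 9.49, 9.64 and 9.64 in NC and 10.66, 10.27 and 10.56 in NC+CCl4, without overlap, and just missed the threshold (0.90 ± 0.28, adjusted p = 0.0508). The count of 10 became 6 without NC replicate 1 or NC replicate 2 and 5 without NC+CCl4 replicate 3.

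PDGFs and TGFβ are the main growth factors that act on HSCs, and integrins tie the cells to the matrix. Of 25 PDGF and integrin genes, 14 were called higher and none lower, and the count was 9 without NC replicate 1 or NC replicate 3. The ligands Pdgfa (1.23) and Pdgfd (0.85) rose, whereas Pdgfc (0.37) and Pdgfb (0.09) were not called. The leukocyte integrins Itgb2 (3.04), Itgax (2.28), Itgal (1.81) and Itga4 (1.13) and the HSC integrin Itga8 (2.04) rose. Itgb2 measured 4.45, 4.84 and 4.50 in NC and 7.12, 8.66 and 7.13 in NC+CCl4. The common beta-1 chain Itgb1 had a change of 0.02 and was not called. In the TGFβ and Smad list, 6 of 31 were called higher, Tgfbr2 (2.09), Bambi (1.09), Tgfb3 (0.96), Smad6 (0.74), Tgfbr1 (0.60) and Acvrl1 (0.48), and 2 lower, Acvr2a (-0.64) and Bmp2 (-0.60). These shares, 19.35% and 6.45%, stand beside 7.66% and 5.4% of all genes. Tgfbr2, the ligand-binding receptor, measured 6.45, 6.50 and 6.42 in NC and 8.46, 8.41 and 8.78 in NC+CCl4. The number called higher was 3 without NC replicate 2 or NC+CCl4 replicate 3. The 2 lower calls of this list became 0 without NC replicate 1 and 1 without NC replicate 2, NC replicate 3 or NC+CCl4 replicate 3. The Smad proteins that carry the TGFβ signal were not called, Smad2 (0.10), Smad3 (0.06) and Smad4 (-0.25). Of 20 Notch genes, Dll1 (0.97) and Notch1 (0.68) were called higher (10.0%, against 7.66% of all genes), and the count was 1 without NC replicate 1, NC replicate 2, NC replicate 3 or NC+CCl4 replicate 1. In the YAP and TAZ list, Axl (2.13), Tead1 (1.13), Ajuba (0.99) and Wwtr1 (0.62) rose, Ccn1 (-0.90) and Lats1 (-0.32) fell, and Yap1 itself had a change of -0.22 and was not called. Of the 19 genes in the YAP and TAZ list, 21.05% were called higher and 10.53% lower. The 2 lower calls of that list became 1 without NC replicate 1 and 0 without NC replicate 2, NC replicate 3, NC+CCl4 replicate 1, NC+CCl4 replicate 2 or NC+CCl4 replicate 3.

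**Figure D3:**
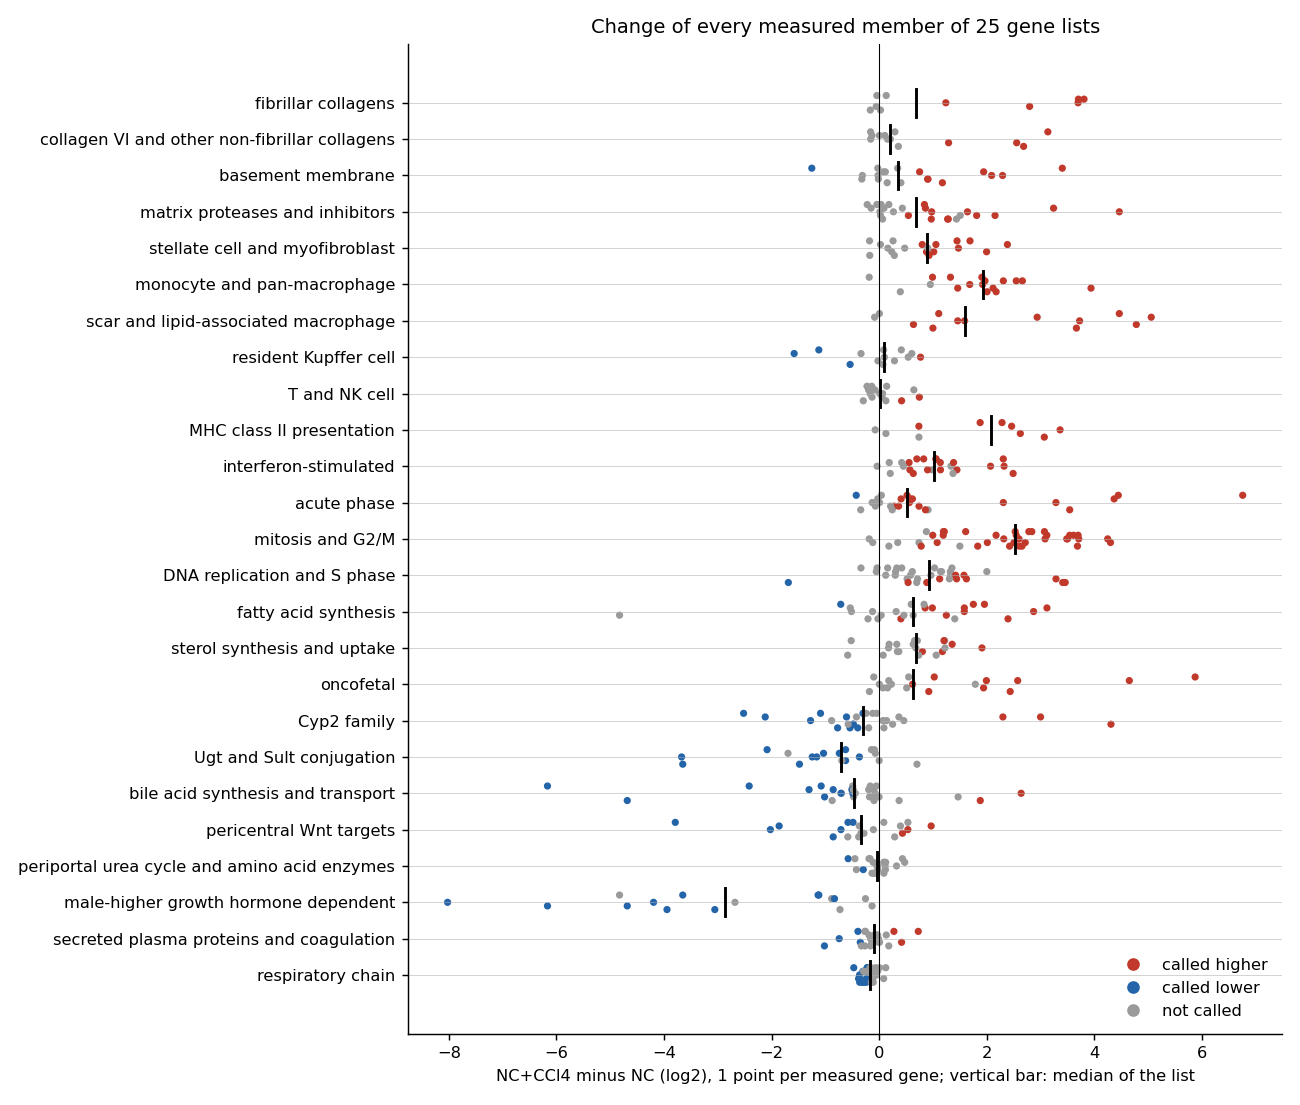
Change after CCl4 (x axis, NC+CCl4 minus NC in log2 units) of every measured member of 25 gene lists (rows), 1 point per gene, with the list median as a bar and called genes in colour. The macrophage, MHC class II and mitosis lists have medians of 1.92, 2.08 and 2.52, and the male-higher list has a median of -2.87.

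Macrophages of the injured liver come from blood monocytes and from resident Kupffer cells. Of 17 monocyte and macrophage genes, 14 (82.4%) were called higher against 7.66% of all genes, and none lower. Lyz2, lysozyme M, measured 7.61, 8.01 and 7.95 in NC and 11.27, 12.50 and 11.61 in NC+CCl4 (3.94 ± 0.49, adjusted p = 0.000742). Csf1r, the receptor for the macrophage growth factor, measured 8.88, 9.08 and 9.38 in NC and 10.78, 11.48 and 10.84 in NC+CCl4 (1.92 ± 0.27). In both genes NC+CCl4 replicate 2 was the highest array. Fcgr3 (2.66), Tyrobp (2.55), Cd14 (2.31), C1qc (2.18), C1qb (2.12), Fcer1g (2.01) and Aif1 (1.97) rose with them, and Itgam (0.95), Mrc1 (0.39) and Ccr2 (-0.18) were not called. Ccr2 was at 1.01 and called when all its probe sets were averaged (adjusted p = 0.0264 in that fit). Of 13 genes of lipid-associated and scar macrophages, 11 were called higher (84.6%, against 7.66% of all genes). Apoe (0.005) and Plin2 (-0.08) were not called, and measured 13.97 to 14.05 and 11.79 to 12.45 on the 6 arrays. Gpnmb, a glycoprotein of lysosome-rich macrophages, measured 4.36, 4.44 and 4.80 in NC and 8.97, 10.15 and 9.67 in NC+CCl4. Lgals3, galectin-3, measured 4.98, 5.16 and 5.74 in NC and 9.77, 10.89 and 9.56 in NC+CCl4. Trem2, their lipid receptor, measured 4.62, 5.11 and 4.94 in NC and 6.11, 6.94 and 6.39 in NC+CCl4 (1.59 ± 0.32), and Lpl, lipoprotein lipase, rose by 3.67.

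Most markers of resident Kupffer cells were not called. Of 13, Cd5l alone (0.77) was called higher (7.69%, against 7.66% of all genes) and 3 were called lower (23.1%, against 5.4%). The 1 higher call became 0 without NC replicate 1, NC replicate 2, NC+CCl4 replicate 1 or NC+CCl4 replicate 2 and 2 without NC+CCl4 replicate 3, and the 3 lower calls became 1 without NC replicate 1, NC replicate 2 or NC+CCl4 replicate 3. Clec4f, the Kupffer cell lectin, measured 8.15, 8.31 and 8.36 in NC and 9.02, 8.49 and 7.52 in NC+CCl4, so the NC+CCl4 arrays lay on both sides of the NC arrays (0.07 ± 0.28, not called). Timd4 measured 4.46, 4.85 and 4.62 in NC and 4.15, 4.86 and 3.90 in NC+CCl4 and was not called. Vsig4 (0.54) and Folr2 (0.41) were not called either, and 8 of the 13 changes were above 0, with a median of 0.08. The haemoglobin scavenger receptor Cd163 measured 5.93, 5.63 and 6.07 in NC and 4.37, 4.50 and 4.02 in NC+CCl4 and fell by 1.58. The iron exporter Slc40a1 fell by 0.54, and C6, a complement protein that hepatocytes make as well, by 1.12. NC+CCl4 replicate 3 had the lowest mean over this list, -0.34 relative to NC, against 0.12 and 0.04.

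Macrophages are rich in lysosomes. Of 25 genes of lysosomal enzymes and related proteins, 13 rose (52%, against 7.66% of all genes). The count was 8 without NC replicate 1 or NC replicate 2 and 7 without NC replicate 3. The genes with the largest changes were Lyz2 (3.94), Lyz1 (3.76), Ctss (3.36), Cd68 (2.94), Lgmn (1.68) and Ctsk (1.62). Lyz1 and Lyz2 are near-identical copies, so their probe sets may read both. The lysosomal membrane proteins Lamp1 (-0.09) and Lamp2 (-0.12) were not called.

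Markers of other cell types were called higher in 13.3% to 30.8% of the measured members of 5 lists, against 7.66% of all genes. Of 15 T and NK cell genes, Nkg7 (0.75) and Cd3g (0.42) were called, but the T cell receptor partners Cd3d (0.06) and Cd3e (0.05) and the coreceptors Cd4 (-0.14) and Cd8a (-0.20) were not. These 2 calls became 0 without NC replicate 1 or NC replicate 2 and 1 without NC replicate 3, NC+CCl4 replicate 1, NC+CCl4 replicate 2 or NC+CCl4 replicate 3. The median of the list was 0.01. Among 11 B and plasma cell genes Blnk (1.43) and Cd22 (0.81) were called, while the defining B cell genes Ms4a1 (0.03) and Cd79a (-0.38) were not. The 2 calls of this list became 0 without NC replicate 1 or NC replicate 2 and 1 without NC replicate 3, NC+CCl4 replicate 2 or NC+CCl4 replicate 3. Jchain, the joining chain of plasma cells, measured 4.46, 4.59 and 4.40 in NC and 4.92, 5.96 and 6.64 in NC+CCl4, highest in replicate 3 of NC+CCl4, and was not called. Of 11 neutrophil genes, 3 were called. S100a8 measured 3.38, 3.60 and 2.97 in NC and 6.49, 6.64 and 7.31 in NC+CCl4 (3.49 ± 0.34). S100a9, its partner in calprotectin, measured 4.92, 4.20 and 4.90 in NC and 6.89, 7.07 and 8.04 in NC+CCl4 (2.66 ± 0.35). Csf3r, the receptor of a granulocyte growth factor, rose by 0.76. The granule genes of neutrophils were not called, Ngp (0.28), Camp (0.22), Mpo (0.16), Ltf (0.15) and Elane (-0.09). Of 20 endothelial genes, Cd36 (2.56), Cd34 (2.00) and Fcgr2b (0.63) were called, and the sinusoidal receptors Stab2 (-0.20) and Kdr (-0.06) were not. Cd34, a marker of capillary rather than sinusoidal endothelium, measured 3.54, 3.94 and 3.88 in NC and 5.59, 5.93 and 5.85 in NC+CCl4. In the cholangiocyte and progenitor list Prom1 (2.60), Cd24a (1.94), Krt8 (1.17) and Krt18 (1.03) were called, of which the keratins Krt8 and Krt18 are also made by hepatocytes. The duct markers Krt19 (0.54), Sox9 (0.49), Krt7 (0.26) and Epcam (0.22) were not called. The count of 4 became 2 without NC replicate 2, NC+CCl4 replicate 1 or NC+CCl4 replicate 3. Of 5 erythroid genes none was called, and Alas2 measured 10.16, 10.32 and 10.21 in NC and 9.37, 9.57 and 8.08 in NC+CCl4.

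Antigen presentation by MHC class II uses paired alpha and beta chains, the invariant chain Cd74 and the protease Ctss. Of 10 genes, 7 were called higher, Ctss (3.36), H2-Ab1 (3.07), H2-Aa (2.63), H2-Eb1 (2.46), Cd74 (2.29) and H2-DMa (1.88) and their regulator Ciita (0.74). Cd74 measured 6.75, 6.69 and 6.78 in NC and 8.77, 9.44 and 8.87 in NC+CCl4. The mean over the list relative to NC was 1.47, 2.09 and 1.61 on the NC+CCl4 arrays. In the MHC class I and immunoproteasome list 4 of 12 were called, Psmb9 (1.03), Tapbp (0.83), H2-D1 (0.57) and H2-K1 (0.56), with list means of 0.39, 1.06 and 0.27, so replicate 2 stood above the other 2. B2m, the light chain, had a change of 0.13 and was not called.

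Interferons induce a common set of antiviral genes. Of 24 measured, 16 (66.7%) were called higher and none lower. Ifi27l2a measured 6.07, 6.33 and 6.25 in NC and 8.84, 9.19 and 8.11 in NC+CCl4 (2.49 ± 0.46). Oas1a, a sensor of double-stranded RNA, measured 6.93, 7.04 and 7.09 in NC and 9.57, 9.90 and 8.51 in NC+CCl4 (2.31 ± 0.34). Ifit1, which binds foreign RNA, measured 5.12, 4.54 and 4.83 in NC and 6.54, 6.98 and 5.13 in NC+CCl4 (1.38 ± 0.37). Ifit2, the deconjugase Usp18 and the GTPase Gbp3 rose by 2.32, 2.07 and 1.45. Gbp3 measured 5.38, 5.13 and 5.57 in NC and 6.67, 8.12 and 5.63 in NC+CCl4. Its adjusted p was 0.0444, and it was called higher under only 5 of the 18 alternatives. The mean of the list relative to NC was 1.02, 1.65 and 0.52, so replicate 2 was the highest and replicate 3 the lowest. The count of 16 was 8 without NC replicate 1 or NC+CCl4 replicate 2, 7 without NC replicate 2, 6 without NC replicate 3 and 10 without NC+CCl4 replicate 1. Ifit1 lost the call without NC replicate 1, NC replicate 2, NC replicate 3, NC+CCl4 replicate 1 or NC+CCl4 replicate 2.

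Such genes are known to be switched on through the interferon-stimulated response element (ISRE) before their start. The starts of 3 of them are shown, the called members with the largest change that held a match. Ifi27l2a, Ifit2 and Usp18 changed more than Gbp3 but had no match or no promoter entry. RefSeq promoters (build GRCm38.p6) were searched for GAAA, any 2 bases and GAAA again on both strands in the 250 bases before the transcript start. It was found in 9 of 22 promoters of the 18 measured list members with an entry (40.9%), and in 2.98% of all 32851 promoters. The sequences run 5′ to 3′ up to the base before the start, with matches in capitals, which may overlap. They lie at chr5:120907526-120907645, minus strand for Oas1a, at chr3:142559924-142560043, plus strand for Gbp3 and at chr19:34640769-34640888, plus strand for Ifit1.
Oas1a: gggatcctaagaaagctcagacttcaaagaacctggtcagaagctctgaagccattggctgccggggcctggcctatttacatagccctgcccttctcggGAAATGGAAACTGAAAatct
Gbp3: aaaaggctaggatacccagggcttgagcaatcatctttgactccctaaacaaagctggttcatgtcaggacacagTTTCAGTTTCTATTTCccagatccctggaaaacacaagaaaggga
Ifit1: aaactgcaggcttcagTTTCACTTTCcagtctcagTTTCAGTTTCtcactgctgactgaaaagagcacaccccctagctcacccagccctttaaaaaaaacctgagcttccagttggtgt

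Chemokines attract leukocytes, and cytokines carry signals between them and the liver cells. Of 29 chemokines and receptors 7 (24.1%, against 7.66% of all genes) were called higher, Ccl6 (2.68), Cxcr4 (1.65), Ccl5 (1.50), Cxcl9 (1.16), Cxcl10 (1.09), Cxcl16 (0.61) and Cxcl11 (0.57), a count that was 2 without NC replicate 1 or NC replicate 3, 1 without NC replicate 2 and 4 without NC+CCl4 replicate 3. Ccl6, a macrophage chemokine, measured 5.44, 5.27 and 5.76 in NC and 7.38, 9.44 and 7.71 in NC+CCl4. The monocyte attractant Ccl2 had a change of 0.25 and was not called. Among 27 cytokine genes, Osmr (1.40), Il33 (1.21), Tnfaip3 (1.06), Fas (0.63), Stat3 (0.51) and Tnfrsf1a (0.43) were called (22.2%), and the cytokines Tnf (0.31), Il1b (0.11) and Il6 (0.05) were not. Il33, an alarmin of HSCs and endothelium, measured 4.43, 4.70 and 4.79 in NC and 6.03, 5.83 and 5.69 in NC+CCl4.

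Plasma proteins of the acute phase are made by hepatocytes under inflammatory cytokines. Of 25 acute phase genes 15 (60.0%) were called higher and 1 lower. Saa2 measured 6.37, 6.06 and 6.22 in NC and 8.50, 11.63 and 11.87 in NC+CCl4, so NC+CCl4 replicate 1 was more than 3 log2 units below the other 2. Saa1 measured 8.51, 8.27 and 8.43 in NC and 10.33, 12.81 and 12.70 in NC+CCl4 and rose by 3.54. Orm2, an acid glycoprotein, measured 7.0, 6.31 and 7.20 in NC and 8.57, 11.19 and 10.60 in NC+CCl4 (3.29 ± 0.57). Hp, haptoglobin, rose by 0.52 and Hpx, hemopexin, by 0.41, while the fibrinogen chains Fga (0.04), Fgb (-0.03) and Fgg (0.01) and hepcidin, Hamp (-0.07), were not called. A2m, alpha-2-macroglobulin, was called lower (-0.43). This call was lost without any one of the NC arrays and without NC+CCl4 replicate 1 or 3. Among 21 complement genes 4 were called higher (19.05%, against 7.66% of all genes) and 6 lower (28.57%, against 5.4%). Those higher were the macrophage products C1qc (2.18), C1qb (2.12) and C1qa (1.68) and the C3a receptor C3ar1 (1.43), and those lower were liver components of the lectin and membrane attack pathways, C6 (-1.12), C8b (-1.12), Masp1 (-0.73), C8g (-0.48), Masp2 (-0.46) and C8a (-0.40). Other members of these pathways were not called, Mbl1 (-0.51), C9 (-0.12), Hc (-0.04) and Mbl2 (0.004). C8b measured 11.07, 11.25 and 10.98 in NC and 9.90, 10.26 and 9.78 in NC+CCl4, without overlap. Masp1 was at 0.18 and was not called when all its probe sets were averaged. The count called lower was 1 without NC replicate 1 or NC replicate 2 and 2 without NC+CCl4 replicate 3. Of 25 genes of coagulation and other secreted plasma proteins 3 were called higher and 4 lower, with F11 (-1.02), Klkb1 (-0.74), Proc (-0.39) and F5 (-0.35) against Serpina6 (0.73), Kng1 (0.42) and Ahsg (0.27), and the median was -0.09. Of these genes the 3 higher calls became 1 without NC replicate 2, NC replicate 3 or NC+CCl4 replicate 3. The count of 4 was 2 without NC replicate 1 and 8 without NC+CCl4 replicate 2. Albumin measured 14.28, 14.28 and 14.28 in NC and 14.38, 14.39 and 14.47 in NC+CCl4 and was not called. Of 17 apolipoprotein genes, Apoa4 (2.16), Pltp (1.65) and Apoc2 (0.83) were called, and Apob had a change of -0.53 and was not called. The 3 calls became 5 without NC+CCl4 replicate 1. C8b lost the call without NC replicate 1, NC replicate 2, NC+CCl4 replicate 1 or NC+CCl4 replicate 3.

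Dividing cells express the genes of mitosis together in G2 and M phase. Of 40 such genes 33 (82.5%) were called higher and none lower, with a median change of 2.52. Mki67, the proliferation marker Ki-67, measured 3.63, 3.88 and 3.71 in NC and 9.08, 6.47 and 8.42 in NC+CCl4 (4.25 ± 0.81, adjusted p = 0.00568). Birc5, survivin, measured 3.36, 3.34 and 3.24 in NC and 9.07, 5.42 and 8.36 in NC+CCl4 (4.30 ± 1.00). Ccnb2, a mitotic cyclin, measured 4.25, 3.88 and 4.39 in NC and 9.78, 6.11 and 7.76 in NC+CCl4 (3.71 ± 0.83). In all 3 genes NC+CCl4 replicate 2 was the lowest of its group and still above every NC array. Over the list, the mean relative to NC was 3.15, 0.96 and 2.56 on the NC+CCl4 arrays, and between -0.04 and 0.04 on the NC arrays. Other members were Top2a (3.70), Ube2c (3.69), Cdca8 (3.61) and Ccna2 (3.54), a DNA topoisomerase, a ubiquitin conjugating enzyme, a chromosomal passenger and a cyclin. Nek2 (1.50), Cdc20 (0.74), Foxm1 (-0.12) and Tpx2 (-0.18) were among the 7 that were not called, but Tpx2 was at 0.88 and called when all its probe sets were averaged (adjusted p = 0.0251 in that fit). Birc5 lost the call without NC+CCl4 replicate 1 or NC+CCl4 replicate 3.

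Many promoters of mitotic genes are known to hold CCAAT boxes and a cell cycle homology region (CHR), and both were found in part of these genes. CCAAT, on either strand of the 250 bases before the start, was found in 27 of 34 promoters of the 32 list members with an entry (79.4%) and in 33.8% of all promoters. The CHR letters TTTGAA were found in 11 of 34 (32.4%), against 16% of all, and both motifs in 10 of 34 (29.4%), against 5.55%. For 35 promoters of genes of DNA replication the shares were 60% for CCAAT and 11.4% for TTTGAA. The promoters of the 3 called members with the largest change that hold both motifs follow, with matches to either in capitals, at chr7:135716380-135716577, minus strand for Mki67, chr9:70421555-70421731, minus strand for Ccnb2 and chr11:99024190-99024426, minus strand for Top2a.
Mki67: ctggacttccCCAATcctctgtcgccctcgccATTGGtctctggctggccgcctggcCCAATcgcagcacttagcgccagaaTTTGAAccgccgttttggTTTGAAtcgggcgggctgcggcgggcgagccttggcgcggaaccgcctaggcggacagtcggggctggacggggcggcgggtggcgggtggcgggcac
Ccnb2: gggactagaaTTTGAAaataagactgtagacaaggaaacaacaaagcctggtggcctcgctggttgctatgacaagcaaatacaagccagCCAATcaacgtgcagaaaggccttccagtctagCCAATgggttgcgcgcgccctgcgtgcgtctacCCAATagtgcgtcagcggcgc
Top2a: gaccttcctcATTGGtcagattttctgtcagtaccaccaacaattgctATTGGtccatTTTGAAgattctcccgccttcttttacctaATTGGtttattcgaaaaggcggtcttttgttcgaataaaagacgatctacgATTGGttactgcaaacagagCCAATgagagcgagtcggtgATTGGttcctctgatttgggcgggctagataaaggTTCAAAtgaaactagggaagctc

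DNA replication takes place in S phase, before mitosis. Of 34 genes of DNA replication 10 were called higher and 1 lower, although 30 had a change above 0. Mcm6, a subunit of the replicative helicase, measured 3.75, 4.26 and 4.52 in NC and 7.74, 5.91 and 9.26 in NC+CCl4 (3.46 ± 0.85, adjusted p = 0.0189). Rrm2, of ribonucleotide reductase, measured 4.09, 4.44 and 4.37 in NC and 8.13, 5.45 and 9.56 in NC+CCl4 (3.41 ± 0.84). Pcna, the sliding clamp, measured 9.28, 9.30 and 9.29 in NC and 10.17, 9.75 and 11.33 in NC+CCl4 (1.13 ± 0.31). Replicate 2 was the lowest NC+CCl4 array in each. The list mean relative to NC was 1.07, 0.17 and 1.68, and the count called higher was 0 without NC replicate 1 or NC replicate 2, 2 without NC replicate 3, 5 without NC+CCl4 replicate 1, 26 without NC+CCl4 replicate 2 and 1 without NC+CCl4 replicate 3. Mcm10, the member called lower, measured 11.19, 10.65 and 10.05 in NC and 8.83, 9.26 and 8.72 in NC+CCl4. Its level in NC was far above that of Mcm6 and Rrm2, and whether its probe set reads only Mcm10 was not tested. Among 29 regulators of G1, Ccnd1 (3.39), Cdkn1a (2.96), Cdkn2c (2.45), Rbl1 (2.41), Cdkn2d (1.11), E2f2 (1.06), Cdkn1c (0.92) and Ccnd2 (0.59) were called higher and Met, the receptor of hepatocyte growth factor, lower (-0.42). Met lost its call without NC replicate 1. Cyclin D1, Ccnd1, measured 6.69, 6.62 and 6.32 in NC and 10.07, 9.07 and 10.64 in NC+CCl4, with every NC+CCl4 array above every NC array. Myc had a change of -0.01 and was not called, and Egfr measured 10.14, 11.79 and 11.18 in NC and 9.91, 10.62 and 10.39 in NC+CCl4 (-0.73 ± 0.47, not called). Tubulins rose in 6 of 11 genes, and Tubb6 measured 5.78, 5.94 and 5.92 in NC and 9.65, 7.51 and 9.39 in NC+CCl4 (2.97 ± 0.49), Tubb2a rose by 1.58 and Tuba1a by 1.19. Mcm6, Rrm2 and Pcna lost the call without NC replicate 1 or NC replicate 2, Rrm2 and Pcna without NC replicate 3, Rrm2 without NC+CCl4 replicate 1, and Mcm6 and Rrm2 without NC+CCl4 replicate 3.

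**Figure D4:**
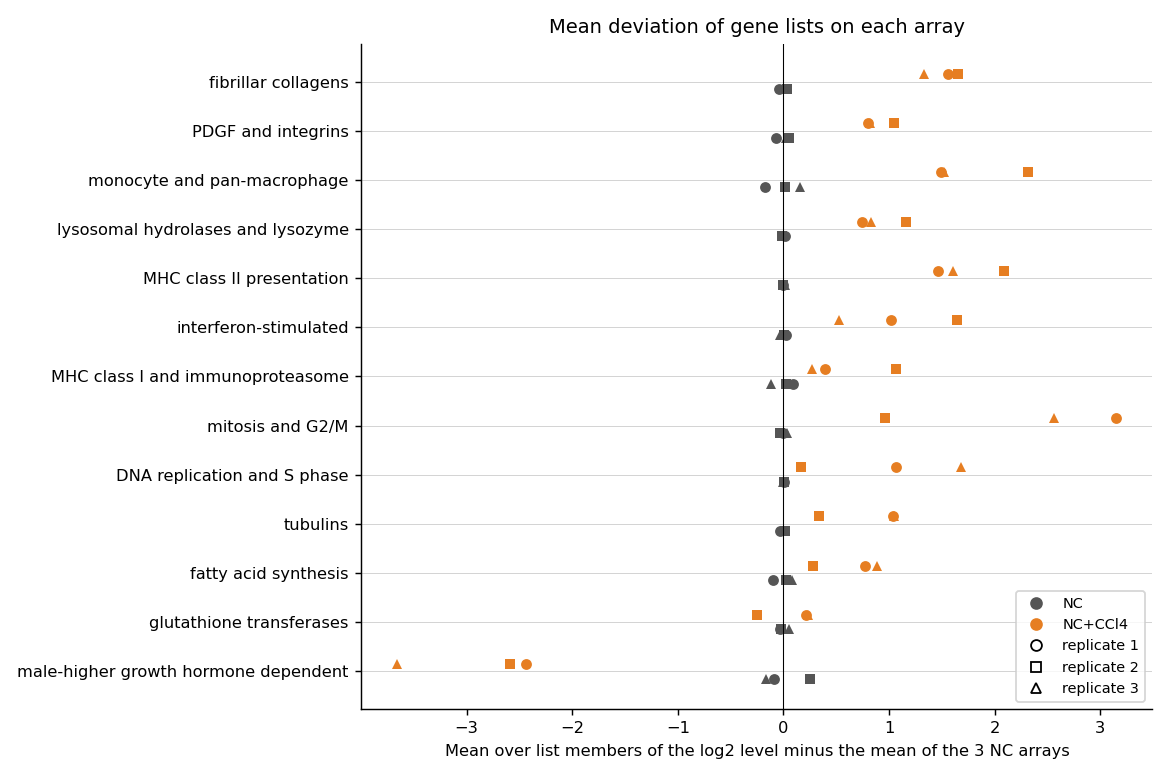
Mean over the members of a gene list of the log2 level minus the mean of the 3 NC arrays (x axis, log2 units), for each NC (grey) and NC+CCl4 (orange) array, with shapes for replicates. NC+CCl4 replicate 2 is lowest in the mitosis list (0.96 against 3.15 and 2.56) and highest in the interferon list (1.65 against 1.02 and 0.52).

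Of 21 genes of the p53 response and the Bcl2 family, 8 were called higher and none lower. Cdkn1a, the cell cycle inhibitor p21, measured 5.21, 5.07 and 5.48 in NC and 9.38, 6.97 and 8.29 in NC+CCl4 (2.96 ± 0.56). Phlda3 and Eda2r, both known p53 targets, rose by 1.51 and 1.40, and the pro-apoptotic Bbc3 by 0.82. The anti-apoptotic members Bcl2 (-0.11), Bcl2l1 (0.03) and Mcl1 (0.21) and the p53 antagonist Mdm2 (0.15) were not called. Genes of the unfolded protein response and of Atf4 were called in 2 of 27 upwards, Psat1 (1.74) and Atf3 (1.52), and in 2 downwards, Herpud1 (-1.54) and Chac1 (-1.20), and the ER chaperone Hspa5 (-0.13) was not called. The shares of 7.41% in each direction stand beside 7.66% and 5.4% of all genes. The 2 higher calls became 0 without NC replicate 1 or NC replicate 3 and 1 without NC replicate 2, NC+CCl4 replicate 1 or NC+CCl4 replicate 3, and the 2 lower calls became 1 without NC replicate 1, NC replicate 2 or NC+CCl4 replicate 3 and 4 without NC replicate 3. Herpud1 measured 11.79, 12.21 and 12.20 in NC and 10.10, 11.18 and 10.29 in NC+CCl4. Of 26 immediate early genes, Atf3 (1.52), Klf6 (1.40) and Ier3 (0.67) were called higher and Gadd45g (-2.10) and Ier2 (-0.88) lower, and the AP-1 subunits Fos (-0.46) and Jun (-0.23) were not called. The shares of this list were 11.5% higher and 7.69% lower, against 7.66% and 5.4% of all genes. The 3 higher calls of the immediate early genes became 1 without NC replicate 1 or NC replicate 3 and 6 without NC+CCl4 replicate 2, and the 2 lower calls became 0 without NC replicate 1 and 1 without NC replicate 2, NC replicate 3, NC+CCl4 replicate 2 or NC+CCl4 replicate 3. Of 18 clock genes the nuclear receptors Nr1d1 (-1.03) and Nr1d2 (-0.98) fell (11.1%, against 5.4% of all genes called lower). The 16 others were not called, among them the nuclear receptor Rora (-0.26). The 2 lower calls became 0 without NC replicate 1, NC replicate 2, NC replicate 3 or NC+CCl4 replicate 3 and 1 without NC+CCl4 replicate 1, and the 0 higher calls became 2 without NC+CCl4 replicate 2. Nr1d1 measured 6.26, 6.67 and 6.41 in NC and 5.79, 5.86 and 4.62 in NC+CCl4. Nr1d1 lost the call without NC replicate 1, NC replicate 2, NC replicate 3 or NC+CCl4 replicate 3.

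Annexins and S100 proteins, which bind calcium and membranes, rose in 8 of 21 genes. Anxa2 measured 7.08, 7.47 and 7.23 in NC and 10.18, 10.02 and 9.79 in NC+CCl4 (2.74 ± 0.50), and Anxa1 (2.42), S100a6 (2.25), Anxa3 (2.19) and Anxa5 (1.49) rose with it. S100a4, which fibroblasts and macrophages express, measured 3.22, 3.14 and 3.16 in NC and 3.49, 6.05 and 3.87 in NC+CCl4 and was not called (1.30 ± 0.56).

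Cytochromes P450 carry out the oxidation of drugs, steroids and fatty acids in hepatocytes. Of 27 members of the Cyp2 family 3 were called higher and 11 (40.7%) lower, against 5.4% of all genes, with a median change of -0.30. The 3 that rose were Cyp2b9 (4.31), Cyp2b10 (3.00) and Cyp2c55 (2.30), and Cyp2b13 had a change of 0.46 and was not called. The number of Cyp2 genes called higher was 1 without NC replicate 2. Cyp2b10, the target of the receptor CAR, measured 5.61, 5.36 and 6.30 in NC and 10.14, 7.45 and 8.68 in NC+CCl4 (3.00 ± 0.91). Cyp2e1, the enzyme that activates CCl4, measured 13.81, 13.72 and 13.80 in NC and 13.15, 13.50 and 13.23 in NC+CCl4 and fell by 0.49 (adjusted p = 0.0283). Cyp2g1 measured 7.41, 6.77 and 7.07 in NC and 4.84, 4.59 and 4.27 in NC+CCl4 and fell by 2.52. Cyp2u1 measured 7.68, 7.98 and 7.48 in NC and 5.89, 5.71 and 5.17 in NC+CCl4 and fell by 2.12, and neither gene overlapped between the groups. The others called lower were Cyp2c38 (-1.28), Cyp2c54 (-1.09), Cyp2d22 (-0.77), Cyp2j5 (-0.61), Cyp2c50 (-0.54), Cyp2d10 (-0.48), Cyp2f2 (-0.40) and Cyp2a12 (-0.30). Cyp2 genes are close paralogues, so probe sets may read more than 1 of them. The count called lower was 5 without NC replicate 1, 7 without NC replicate 2 or NC+CCl4 replicate 3 and 4 without NC replicate 3. Cyp1a2, a pericentral enzyme, fell by 0.33, while Cyp1b1, which HSCs and other mesenchymal cells express, measured 4.62, 4.37 and 4.46 in NC and 5.56, 5.99 and 5.97 in NC+CCl4 and rose by 1.36. Cyp1a2 lost its call without any one of the NC arrays and without NC+CCl4 replicate 3. In the Cyp3 family Cyp3a13 (0.58) rose, Cyp3a25 (-0.34) fell and Cyp3a11 (-0.10) was not called. Cyp3a13 lost its call without NC replicate 1, NC replicate 2 or NC+CCl4 replicate 3, and Cyp3a25 without NC replicate 1, NC replicate 3 or NC+CCl4 replicate 3. Of 10 Cyp4 genes Cyp4f16 (0.87) rose and Cyp4f13 (-1.19), Cyp4v3 (-0.68) and Cyp4f14 (-0.50) fell. Cyp4a14, a PPARα target, measured 6.81, 4.53 and 5.41 in NC and 9.81, 8.47 and 8.33 in NC+CCl4 and was not called (3.29 ± 1.13, adjusted p = 0.0759). Cyp4a12a, the male-specific hydroxylase, measured 11.61, 11.84 and 11.83 in NC and 10.40, 9.44 and 7.39 in NC+CCl4 and was not called either (-2.68 ± 1.09). Cyp2b10 and Cyp2e1 lost the call without NC replicate 1, NC replicate 2, NC replicate 3, NC+CCl4 replicate 1 or NC+CCl4 replicate 3.

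Conjugating enzymes attach sugars, sulfate or glutathione to drugs, steroids and bile acids. Of 18 glucuronosyltransferases and sulfotransferases 11 (61.1%) were called lower and none higher, with a median change of -0.72. Sult5a1 measured 9.08, 9.30 and 8.68 in NC and 5.39, 5.27 and 5.38 in NC+CCl4 (-3.67 ± 0.49, adjusted p = 0.00101). Ugt2b38 measured 8.33, 8.93 and 7.20 in NC and 4.93, 4.60 and 3.98 in NC+CCl4 (-3.65 ± 0.73). Sult2a8, which sulfates bile acids, measured 12.74, 12.71 and 12.71 in NC and 11.29, 11.67 and 8.96 in NC+CCl4, with replicate 3 the lowest (-2.08 ± 0.57). Ugt2b1 and Ugt2b5 fell by 1.48 and 0.62. Of 20 glutathione transferases none was called higher and Gstm6 (-0.56), Gsto1 (-0.49) and Gstz1 (-0.28) were called lower. The 0 higher calls became 4 without NC+CCl4 replicate 2, and the 3 lower calls became 1 without NC replicate 1, NC replicate 2 or NC replicate 3. Gstm3 measured 8.65, 8.90 and 9.47 in NC and 11.49, 8.88 and 10.91 in NC+CCl4 and was not called (1.42 ± 0.52), and the list mean relative to NC was 0.22, -0.25 and 0.24, with replicate 2 below NC and the other 2 above. In the antioxidant list of the factor Nrf2, Gpx3 (2.37), Abcc4 (1.88), Pgd (1.63) and Nfe2l2 (1.13) rose and Gclc (-0.92), Gclm (-0.46) and Sod2 (-0.28) fell, and the classical target Nqo1 measured 5.69, 5.36 and 5.24 in NC and 6.25, 5.35 and 6.17 in NC+CCl4 and was not called. The 3 lower calls of the Nrf2 list became 0 without NC replicate 1, NC replicate 2 or NC replicate 3 and 1 without NC+CCl4 replicate 3. Gclc, which limits glutathione synthesis, measured 11.67, 11.81 and 11.76 in NC and 10.93, 11.17 and 10.37 in NC+CCl4, with no overlap. The metallothioneins Mt1 and Mt2 rose by 2.09 and 2.64, and Mt2 measured 6.34, 6.28 and 6.70 in NC and 7.83, 9.44 and 9.96 in NC+CCl4. Tfrc, the transferrin receptor, rose by 1.18. In the metallothionein and iron list of 20 genes 6 were called higher and Slc40a1 lower, and the 1 lower call became 0 without NC replicate 1, NC replicate 2 or NC+CCl4 replicate 3. Sult2a8 and Gclc lost the call without NC replicate 1, NC replicate 2, NC replicate 3 or NC+CCl4 replicate 3 and Gclc without NC+CCl4 replicate 1.

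Hepatocytes differ along the lobule, with Wnt targets around the central vein and urea and gluconeogenic enzymes around the portal vein. Of 21 pericentral genes 3 were called higher and 8 (38.1%) lower, and of 22 periportal and amino acid genes none was called higher and 2 lower. Whether the lists differ was not tested. Glul, glutamine synthetase, measured 11.54, 11.28 and 11.50 in NC and 9.62, 10.34 and 8.78 in NC+CCl4 (-1.86 ± 0.50). Oat, ornithine aminotransferase, measured 12.56, 12.17 and 12.55 in NC and 10.31, 9.99 and 10.90 in NC+CCl4 (-2.02 ± 0.43). The glutamate transporter Slc1a2 measured 8.34, 7.99 and 7.88 in NC and 3.83, 4.45 and 4.55 in NC+CCl4 (-3.79 ± 0.70). All 3 belong to the innermost pericentral hepatocytes and had no overlap between the groups. The Wnt feedback gene Axin2 measured 5.71, 5.55 and 5.45 in NC and 6.46, 5.98 and 5.87 in NC+CCl4 and rose by 0.53, whereas Znrf3, another, fell by 0.58 and Lgr5 (-0.58) was not called. The 3 higher calls of the pericentral list became 1 without NC replicate 1 and 0 without NC replicate 2. The number of pericentral genes called lower was 5 without NC replicate 1, NC replicate 2, NC replicate 3 or NC+CCl4 replicate 3. In the periportal list Agxt (-0.58) and Otc (-0.29) fell, and the urea cycle enzymes Cps1 (0.12), Ass1 (0.12), Asl (-0.03) and Arg1 (-0.11) were not called. The 0 higher calls of this list became 2 without NC+CCl4 replicate 2, and the 2 lower calls became 1 without NC replicate 1, NC replicate 2, NC replicate 3 or NC+CCl4 replicate 3 and 4 without NC+CCl4 replicate 2. Glul and Axin2 lost the call without NC replicate 1, NC replicate 2, NC replicate 3 or NC+CCl4 replicate 1 and Glul without NC+CCl4 replicate 3.

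Bile acid synthesis and transport fell in part. Of 29 genes 10 (34.5%) were called lower and 2 higher, with a median of -0.48. Cyp8b1, which makes cholic acid, measured 10.94, 11.05 and 11.07 in NC and 9.13, 10.04 and 6.65 in NC+CCl4, so replicate 3 was more than 2 log2 units below the other NC+CCl4 arrays (-2.42 ± 0.64, adjusted p = 0.028). Cyp7b1 of the alternative pathway measured 12.43, 12.84 and 12.74 in NC and 8.37, 8.82 and 6.77 in NC+CCl4 (-4.68 ± 0.79), and Cyp27a1 fell by 0.85. Cyp7a1, the rate-limiting enzyme of the classical pathway, measured 9.59, 9.36 and 8.38 in NC and 10.02, 10.37 and 11.34 in NC+CCl4 and was not called (1.47 ± 0.68, adjusted p = 0.186). The sinusoidal uptake carriers Slco1a1 (-6.17), Slco1b2 (-0.71) and Slc10a1 (-0.51) and the sterol exporters Abcg5 (-1.08) and Abcg8 (-1.30) fell. The export pump to the canaliculus, Abcb11, had a change of -0.05 and was not called, while the basolateral pump Abcc4 measured 4.06, 3.62 and 4.14 in NC and 6.37, 5.30 and 5.79 in NC+CCl4 and rose by 1.88. Cyp39a1, an oxysterol hydroxylase, rose by 2.64. Cyp8b1 lost the call without NC replicate 1, NC replicate 2 or NC replicate 3.

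**Figure D5:**
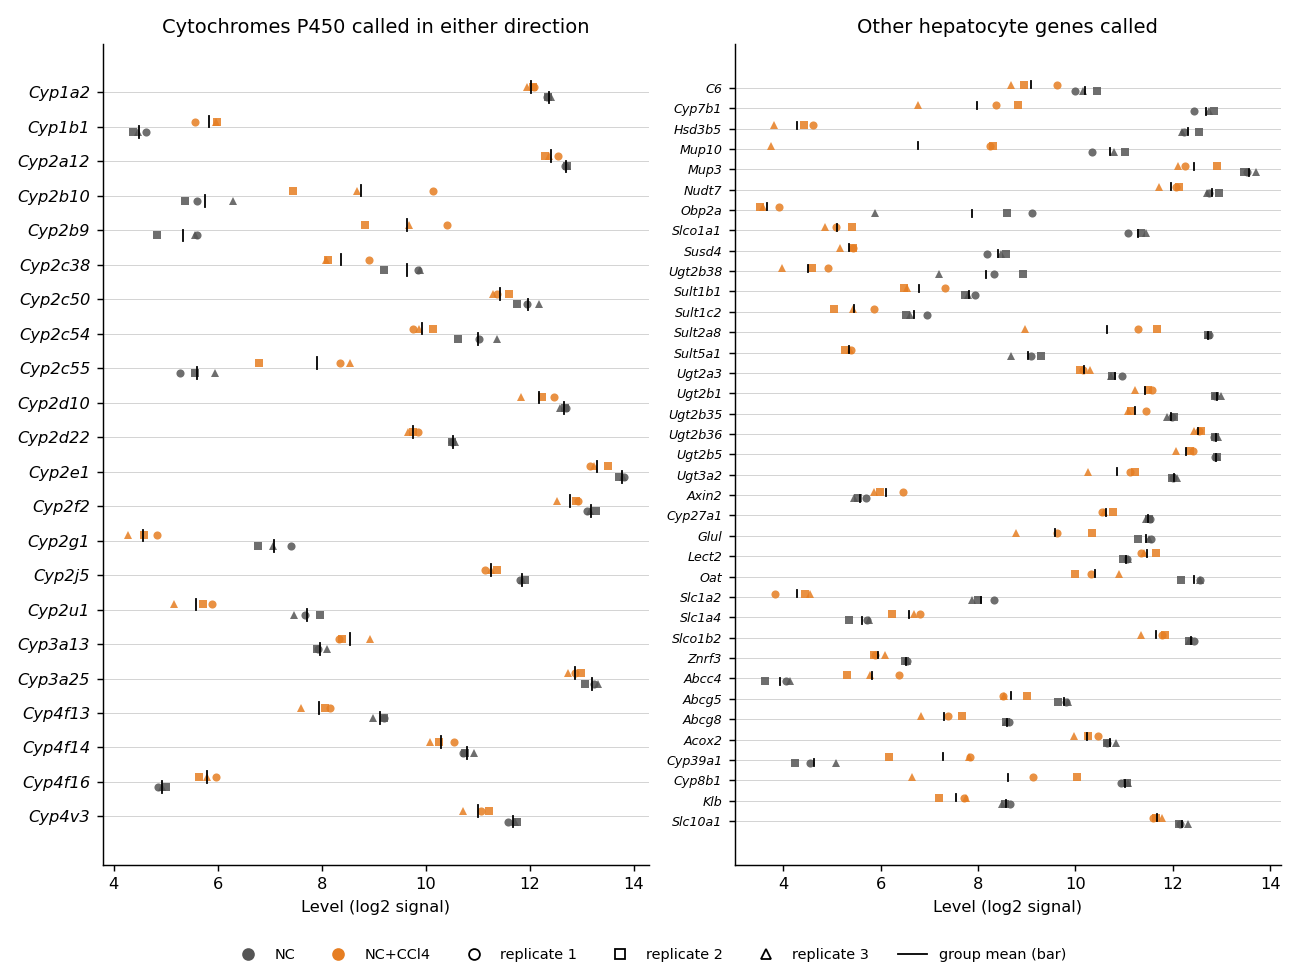
Level (x axis, log2 signal) of the called cytochromes P450 (left) and the other called genes of the male-higher, conjugation, pericentral and bile acid lists (right) on each NC (grey) and NC+CCl4 (orange) array, with shapes for replicates and bars for group means. Cyp2e1 stays above 13 on all arrays, whereas Hsd3b5 goes from above 12 to below 5.

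Genes of fatty acid synthesis rose in part. Of 25 genes 11 (44.0%) were called higher and 1 lower, with a median of 0.63. Scd1, the stearoyl-CoA desaturase, measured 9.15, 10.86 and 10.73 in NC and 13.44, 12.91 and 13.75 in NC+CCl4 (3.12 ± 0.52). Fasn, fatty acid synthase, measured 7.93, 8.57 and 8.54 in NC and 10.86, 9.93 and 11.45 in NC+CCl4 (2.40 ± 0.40). The regulator Srebf1 rose by 1.25 together with Scd2 (2.87), Elovl6 (1.96), Acaca (1.75), Acacb (1.58) and Acly (1.58). Dgat2, of the last step of triglyceride synthesis, was the member called lower (-0.71), and the number called lower was 2 without NC replicate 1 or NC+CCl4 replicate 1. Elovl3, an elongase that is higher in males, measured 10.11, 11.06 and 10.50 in NC and 8.16, 6.05 and 2.98 in NC+CCl4 and was not called (-4.83 ± 1.58, adjusted p = 0.0649). In sterol synthesis and uptake 5 of 21 were called, Sqle (1.91), Dhcr7 (1.36), Pmvk (1.21), Fdft1 (1.18) and Insig1 (0.80), although 19 of 21 changes were above 0, and the count was 0 without NC replicate 1, NC replicate 2 or NC+CCl4 replicate 3 and 3 without NC+CCl4 replicate 1. NC replicate 1 was low in this list, with a mean of -0.40 relative to all NC arrays, against 0.09 and 0.31. Of 23 genes of fatty acid oxidation 3 were called higher and 1 lower, with Pdk4 (2.55), Acot2 (1.19) and Ehhadh (0.62) higher and the regulator Ppara lower (-0.69), while Cpt1a (-0.32), Acadm (-0.08) and Hadha (-0.06) were not called. The 1 lower call became 0 without NC replicate 1, NC replicate 2, NC+CCl4 replicate 1 or NC+CCl4 replicate 3 and 2 without NC+CCl4 replicate 2. Lipid uptake genes Lpl (3.67), Cd36 (2.56), Fabp4 (1.57) and Fabp5 (1.11) rose, all of which macrophages express as well, and the lipid droplet coats Plin2 (-0.08) and Plin5 (0.34) were not called. In the whole list of 21 lipid droplet and lipase genes Mogat1 (1.35) was the other gene called higher and Fitm1 (-1.96) the gene called lower. The 5 higher calls became 3 without NC replicate 1, and the 1 lower call became 2 without NC replicate 3.

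In glucose metabolism 7 of 24 genes were called higher and 2 lower, and the first count was 1 without NC replicate 1 or NC replicate 2 and 3 without NC replicate 3 or NC+CCl4 replicate 1. The enzymes that rose were mostly glycolytic, Pkm (1.65), Pfkp (1.11), Pklr (0.94), Hk2 (0.91), Hk1 (0.63), Pgam1 (0.32) and Ldha (0.28). Pkm, the pyruvate kinase of non-hepatocytes and dividing cells, measured 5.17, 5.32 and 5.39 in NC and 6.99, 7.52 and 6.30 in NC+CCl4 (1.65 ± 0.43). Pck1, of gluconeogenesis, measured 12.47, 12.30 and 12.78 in NC and 10.62, 11.83 and 10.44 in NC+CCl4 and fell by 1.55, and Pfkfb3 fell by 1.53, while G6pc measured 11.48, 11.90 and 11.94 in NC and 11.47, 11.66 and 10.61 in NC+CCl4 and was not called. Pkm lost the call without NC replicate 1, NC replicate 2, NC replicate 3, NC+CCl4 replicate 1 or NC+CCl4 replicate 2.

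The pulsatile growth hormone of males keeps a set of liver genes high in male mice. Of 16 such genes 10 (62.5%) were called lower and none higher, and every change was below 0, with a median of -2.87. Mup10, a major urinary protein, measured 10.33, 11.01 and 10.79 in NC and 8.24, 8.31 and 3.75 in NC+CCl4, so that NC+CCl4 replicate 3 was over 4 log2 units below the other 2 (-3.94 ± 1.10, adjusted p = 0.0339). Mup genes are near-identical copies and their probe sets cannot be assigned to 1 gene with certainty. Susd4 measured 8.18, 8.57 and 8.47 in NC and 5.43, 5.44 and 5.18 in NC+CCl4, alike on all NC+CCl4 arrays (-3.06 ± 0.31). The others were Hsd3b5 (-8.02), Slco1a1 (-6.17), Cyp7b1 (-4.68), Obp2a (-4.19), Ugt2b38 (-3.65), Mup3 (-1.14), C6 (-1.12) and Nudt7 (-0.83), and the members without a call were Elovl3 (-4.83), Cyp4a12a (-2.68), Cyp2d9 (-0.88), Egfr (-0.73), Gstp1 (-0.25) and Moxd1 (-0.13). The list mean relative to NC was -2.43, -2.59 and -3.66. Of 16 genes that are higher in females 4 were called higher and none lower, Cyp2b9 (4.31), Hao2 (3.43), Prom1 (2.60) and Rtn4 (1.27), a count that was 2 without NC replicate 2, and the median was 0.52. Hao2, a hydroxyacid oxidase, measured 5.22, 4.59 and 5.39 in NC and 8.66, 8.19 and 8.63 in NC+CCl4. The female-specific factor Cux2 had a change of 0.01 and Cyp3a16 (-0.04), Sult3a1 (-0.07) and Cyp3a44 (0.10) were near 0, none of them called. Of 19 genes of the growth hormone and IGF axis itself 1 was called higher and 3 (15.8%, against 5.4% of all genes) lower. Ghr, the receptor, fell by 0.41, Igf1 by 0.30 and Igfals, a plasma carrier of IGF, by 0.72. The 3 lower calls became 1 without NC replicate 1, NC replicate 2 or NC+CCl4 replicate 3, and the 1 higher call became 2 without NC+CCl4 replicate 1 or NC+CCl4 replicate 3. Socs2, a direct target of growth hormone signalling, measured 9.42, 9.80 and 6.97 in NC and 5.91, 6.27 and 7.86 in NC+CCl4 and was not called (-2.05 ± 0.91, adjusted p = 0.169). Igfbp7, which activated HSCs and endothelium make, rose by 1.45. Mup10 lost the call without NC replicate 1, NC replicate 2, NC replicate 3 or NC+CCl4 replicate 3.

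The transcription factors of hepatocyte identity were called lower in 5 of 21 genes and higher in none, Nr1i3 (-0.97), Onecut2 (-0.93), Thrb (-0.80), Ppara (-0.69) and Nr5a2 (-0.56). Nr1i3, which encodes CAR, measured 10.00, 9.72 and 9.44 in NC and 8.60, 8.71 and 8.95 in NC+CCl4 (-0.97 ± 0.14). The count was 1 without NC replicate 1, 2 without NC replicate 2 or NC+CCl4 replicate 1 and 3 without NC replicate 3 or NC+CCl4 replicate 3. The central factors Hnf4a (-0.27), Cebpa (-0.28) and Foxa2 (-0.33) were not called, and Foxa1 measured 9.37, 9.0 and 7.53 in NC and 7.31, 7.08 and 7.77 in NC+CCl4 (-1.25 ± 0.41, not called). Of 19 fetal and tumour-associated genes 9 were called higher and none lower, Afp (5.88), Ly6d (4.65), Spink1 (2.58), Plagl1 (2.44), Gpc3 (1.99), Cd24a (1.94), Sox4 (1.03), Cdkn1c (0.92) and Mest (0.62). Gpc3, a glypican of fetal liver, measured 4.78, 4.68 and 5.19 in NC and 6.28, 7.58 and 6.77 in NC+CCl4. Spink1, a trypsin inhibitor, measured 3.14, 3.06 and 3.14 in NC and 5.80, 5.18 and 6.09 in NC+CCl4. Igf2 (0.51), Lin28b (-0.10) and Igf2bp3 (-0.18) were not called. Gpc3 lost the call without NC replicate 2.

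Changes in the housekeeping machinery were small. Of 36 respiratory chain genes 13 (36.1%) were called lower and none higher, with changes from -0.47 to 0.12 and a median of -0.17. Ndufb5, of complex I, measured 11.55, 11.56 and 11.59 in NC and 11.15, 11.14 and 11 in NC+CCl4 and fell by 0.47. Sdha, of complex II, measured 11.82, 11.81 and 11.87 in NC and 11.56, 11.55 and 11.29 in NC+CCl4 and fell by 0.37. The list mean was below that of NC on every NC+CCl4 array, at -0.12, -0.19 and -0.23, and the count was 5 without NC replicate 1 or NC replicate 2, 8 without NC replicate 3 and 7 without NC+CCl4 replicate 3. Of 27 genes of the constitutive proteasome Psmc1 (-0.42) and Psmb3 (-0.36) were called (7.41%, against 5.4% of all genes called lower), with a median of -0.16. The 2 lower calls became 0 without NC replicate 1, NC replicate 2, NC replicate 3 or NC+CCl4 replicate 3 and 6 without NC+CCl4 replicate 1. Of 23 cytosolic ribosomal protein genes 5 were called higher, Rpl35 (0.56), Rps20 (0.40), Rps24 (0.36), Rps19 (0.33) and Rplp0 (0.31), with a median of 0.10, and the count was 2 without NC replicate 1, 1 without NC replicate 2, 3 without NC replicate 3 or NC+CCl4 replicate 3 and 8 without NC+CCl4 replicate 2. NC+CCl4 replicate 2 did not share this shift, since its list mean was -0.01 against 0.23 and 0.22. Sdha lost the call without NC replicate 1, NC replicate 2, NC replicate 3 or NC+CCl4 replicate 3.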

How the data were processed

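Liver RNA was measured on 12 Affymetrix Mouse Genome 430 2.0 arrays, 3 in each of 4 groups, with the groups and replicate numbers taken from the labels. The deposited table holds 1 log2 signal per probe set and array, normalized by the authors before deposition, by a method that is not given in the sources used here. Values ran from 1.81 to 14.5, and array means from 5.10 to 5.11. The labels call the replicates biological. The number of arrays limits the precision.

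Of 45101 probe sets, 34958 named 1 gene in the platform annotation, 932 several and 9211 none. The 64 control probe sets are counted within these classes. Each of the 18194 genes was represented by the probe set whose 12-array mean was highest. A linear model of the 4 groups was fitted with limma 3.58.1 in R 4.3.3 (8 residual degrees of freedom, eBayes with intensity trend), NC+CCl4 was compared with NC, and p-values of the 18194 genes received Benjamini-Hochberg adjustment. The fit was tested on simulated data. List means, counts and figures were made in Python 3.11.15 with pandas 2.3.3, numpy 2.4.6 and matplotlib 3.10.9.

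The comparison and the 67 gene lists (1231 genes measured) were chosen with earlier results of these data known. Genes were named by rule. These were the 15 highest and 15 lowest changes among called genes whose groups did not overlap and whose higher group mean exceeded that group's median level, and the 12 called genes with the smallest p. From each list they were up to 6 called members with the largest changes and up to 4 others with the highest mean, all members of lists of 12 or fewer, and the 12 genes followed by the study. The 8 called genes with the widest range in NC+CCl4 were also selected. Other list members in the text were chosen after their values were seen. Promoters of RefSeq were searched as strings on both strands. The 18 alternatives were other sets of arrays, a replicate block, other eBayes settings and array weights, quantile normalization, the mean of all probe sets, a filter on low levels, the methods' Student test and threshold, and leaving out each array.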

Additional observations from a re-analysis of the deposited data

How the results depend on the processing

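Against 2375 genes called (1393 higher and 982 lower), the count was 280 (200 higher and 80 lower) by the methods' t-test with Benjamini-Hochberg adjustment, 1262 (941 higher and 321 lower) by that test at the study's threshold of an unadjusted p under 0.05 and a fold change over 1.6, and 1609 (1214 higher and 395 lower) by limma at that threshold. With the 6 arrays alone in the fit it was 1661, of which 555 were lower. Leaving out 1 array gave 1262 to 2518 genes called, 824 to 1563 higher and 438 to 1060 lower. The lowest of these counts came without NC replicate 1 (1262), and those without NC replicate 2 (1322), NC replicate 3 (1624), NC+CCl4 replicate 1 (2208) and NC+CCl4 replicate 3 (1653) were also below the count with all arrays. Fewer arrays leave fewer degrees of freedom, and the cause of these differences was not tested further. Under the other 8 alternatives the count lay between 1914 and 2815 and was within 1.5 times of 2375, and quantile normalization gave 1343 higher and 1387 lower.

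Samples of the same number in the 2 groups did not deviate together, with correlations of 0.15, -0.13 and 0.07 over genes, so the numbers were not taken to pair the samples. With the replicate number as a block, 2440 genes were called, 1410 higher and 1030 lower, and 15 of the 1246 genes followed lost the call while 32 gained it.

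Of those 1246 genes, 3 turned direction, all when the probe sets of a gene were averaged. Ccr2 was then at 1.01, Tpx2 at 0.88 and Masp1 at 0.18. No gene followed turned direction, while called in either fit, under another alternative. The methods' t-test with adjustment ended the call of 364 of these genes, and leaving out NC replicate 1 that of 168. The signal over background of single probe sets was not given, so low levels have no detection limit here.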
